A study of Homo sapiens with 5 samples.

Results

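Binding of the transcription factors Fra-1, MYC and E2F1 was examined at 10 genes that mark luminal breast epithelium: ESR1, PGR, GATA3, FOXA1, ERBB2, ERBB3, KRT8, KRT18, KRT19 and EPCAM. The genes were listed by name, and all 10 were found among the 20098 protein-coding genes on chromosomes 1 to 22 and X. The cells were LM2, which derive from the breast cancer line MDA-MB-231 and metastasize to the lung, grown without treatment, so there was a single condition. Chromatin was immunoprecipitated with antibodies to Fra-1 (the AP-1 subunit encoded by FOSL1), c-Myc or E2F1, with 1 sequenced library for each, so replicate error could not be estimated and no test was made. An EZH2 library belongs to the same series and was not analysed here, nor was the fourth TF. Each list gives peaks called by the authors against the same input DNA, and a peak's fold enrichment is the ratio of its scaled fragment pileup to the local background.

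Luminal cells line the ducts and lobules of the breast, and luminal tumors keep their identity through the estrogen receptor together with GATA3 and FOXA1, which act as partner factors that open chromatin for it. Simple-epithelial keratins and the adhesion molecule EpCAM are products of this state, and the ERBB receptors carry growth factor signals in it. Basal-like lines such as MDA-MB-231 are known for low or absent expression of several of these genes. Expression was not measured in these libraries, so neither the luminal label of the genes nor their silence in LM2 cells could be checked.

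Over the 3 libraries, 10758036 input tags and between 12931227 (Fra-1) and 23853621 (MYC) ChIP tags were kept after removal of duplicates. The deepest library gave the shortest list, with 4857 MYC peaks against 17311 for Fra-1 and 36901 for E2F1 on the chromosomes used. Fold enrichment had a median of 8.24 in the Fra-1 list, 6.67 in the MYC list and 8.88 in the E2F1 list. Depth and scaling differed between libraries, so a peak is placed below by its position within its own list. A gene without a called peak is one at which none was detected at this depth and a q-value cutoff of 0.01, and weaker binding there cannot be told apart from none.

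Each gene was examined in its promoters (2 kb upstream to 2.5 kb downstream of any annotated TSS), in the rest of its body and in 50 kb on either side. A promoter peak of E2F1 was found at 8 of the 10 genes, of Fra-1 at 5 and of MYC at 0. These counts stand against 61.3% of all protein-coding genes for E2F1, 13.2% for Fra-1 and 17.8% for MYC. The keratin and ERBB genes (KRT8, KRT18, KRT19, ERBB2, ERBB3) carried promoter peaks of Fra-1 and E2F1. GATA3, FOXA1 and EPCAM carried E2F1 promoter peaks without Fra-1, and the steroid receptor genes ESR1 and PGR carried no promoter peak. The combination of Fra-1 and E2F1 without MYC, seen at 5 of the 10 genes, was found at 7.67% of all protein-coding genes. MYC and E2F1 without Fra-1, found at 13.1% of all genes, was seen at 0 of the 10. Promoter peaks of all 3 factors were found at 4.67% of all genes and at 0 of these.

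**Figure D1:**
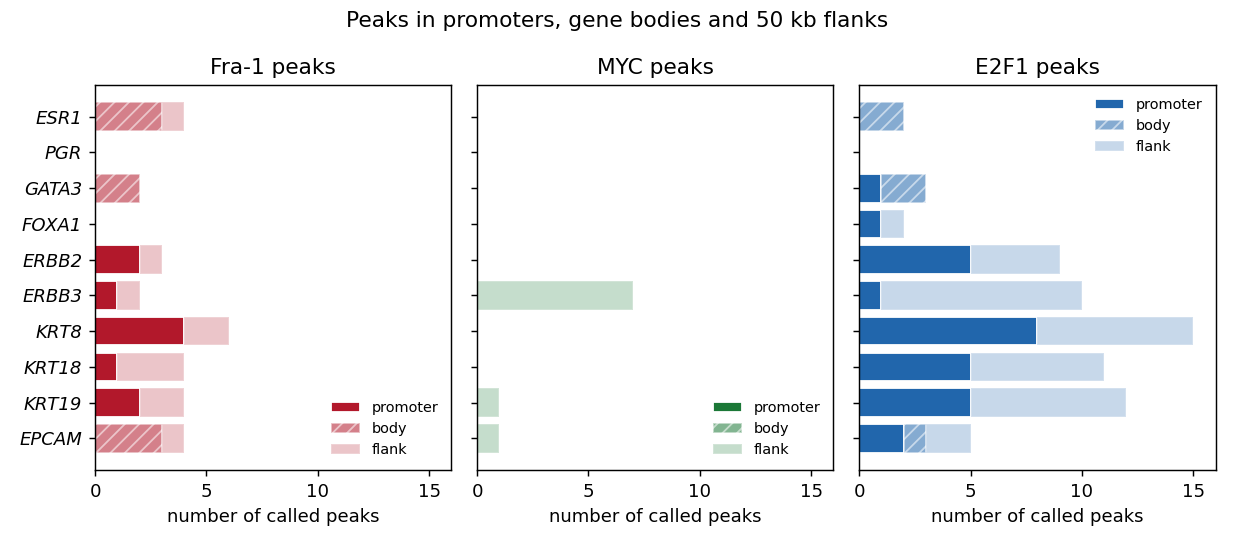
Number of called peaks (horizontal axis) at each gene for Fra-1, MYC and E2F1, split by place into promoter, gene body and 50 kb flank, with 1 library per factor and a peak near several genes counted at each. PGR has no bar, MYC has bars in flanks at ERBB3, KRT19 and EPCAM, and KRT8 has the most E2F1 peaks.

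Sequences around summits are shown for a choice of Fra-1 and E2F1 peaks at these genes. The 2 kinds of site are not separate, because 19 of the 25 Fra-1 peaks overlapped an E2F1 peak. Of the E2F1 windows printed below, only that of ERBB3 is from a peak that overlapped Fra-1, with summits 818 bp apart. A difference in letters between the printed windows therefore depends on this choice. They are from the + strand of GRCh37 (the sequence of hg19), 5' to 3', 50 bp to either side of the summit, shortened where an annotated UTR began. Capitals mark a motif found on either strand: AP-1 (TGACTCA or TGAGTCA), the site of Fos and Jun dimers, or the E-box CACGTG, the site of MYC and related factors. The CRE TGACGTCA and the E2F motifs TTTCCCGC, TTTGGCGC, TTTCGCGC and TTTGCCGC were also searched, and no motif contains another. The Fra-1 windows are the strongest promoter peaks of the keratin genes and, chosen after the values were seen, strong peaks elsewhere at ESR1, GATA3 and KRT19.
KRT8 and KRT18 shared Fra-1 promoter peak, chr12:53343667-53343754: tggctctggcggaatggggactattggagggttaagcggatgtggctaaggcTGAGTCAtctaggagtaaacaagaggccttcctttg
KRT19 Fra-1 promoter peak, chr17:39686539-39686639: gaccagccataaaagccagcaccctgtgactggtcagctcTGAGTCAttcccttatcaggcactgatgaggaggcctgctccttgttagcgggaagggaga
ESR1 intronic Fra-1 peak, chr6:152416402-152416502: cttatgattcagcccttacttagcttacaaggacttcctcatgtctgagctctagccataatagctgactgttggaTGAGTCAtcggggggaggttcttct
KRT19 upstream Fra-1 peak, chr17:39704294-39704394: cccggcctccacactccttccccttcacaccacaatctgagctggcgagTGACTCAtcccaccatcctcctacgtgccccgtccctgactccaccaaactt
GATA3 intronic Fra-1 peak, chr10:8107808-8107908: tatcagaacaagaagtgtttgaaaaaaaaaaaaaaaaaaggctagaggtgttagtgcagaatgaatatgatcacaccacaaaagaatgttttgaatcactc

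Of the 5 Fra-1 windows, 4 held an AP-1 motif, and the GATA3 window held none of the motifs. Over all 25 Fra-1 peaks at the 10 genes, 17 (68%) had AP-1 letters within 50 bp of the summit, against 53.3% of all Fra-1 summits. A match is a description of the letters and does not show which protein was bound. For E2F1 a gene's strongest promoter peak is printed where its summit lay outside a UTR, which leaves out KRT8, KRT18 and KRT19. Weaker E2F1 promoter peaks of these keratin genes outside UTRs are not printed. The strongest summit of ERBB2 also lay in a UTR. That gene is represented by its peak nearest to the canonical TSS, which was chosen after the values were seen.
GATA3 E2F1 promoter peak, chr10:8087205-8087305: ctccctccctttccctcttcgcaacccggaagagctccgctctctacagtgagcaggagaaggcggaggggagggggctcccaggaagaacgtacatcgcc
FOXA1 E2F1 promoter peak, chr14:38065222-38065322: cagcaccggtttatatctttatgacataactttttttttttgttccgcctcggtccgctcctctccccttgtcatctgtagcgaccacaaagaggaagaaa
ERBB2 E2F1 peak nearest its start, chr17:37856144-37856228: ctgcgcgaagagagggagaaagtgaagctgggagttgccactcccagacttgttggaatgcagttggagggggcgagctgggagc
ERBB3 E2F1 promoter peak, chr12:56472986-56473086: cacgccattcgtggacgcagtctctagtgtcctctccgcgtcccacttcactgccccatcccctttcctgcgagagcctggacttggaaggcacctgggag
EPCAM E2F1 promoter peak, chr2:47572202-47572296: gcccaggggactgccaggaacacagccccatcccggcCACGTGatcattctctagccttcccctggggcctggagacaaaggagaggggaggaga

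None of these 5 E2F1 windows held an E2F motif, and the EPCAM window held an E-box. Over all 58 E2F1 peaks at the 10 genes, an E2F motif lay within 50 bp of 1 summit (1.72%, at KRT8), against 1.68% of all E2F1 summits. AP-1 letters lay at 6 of the 58 (10.3%), against 12.2% of all E2F1 summits, and an E-box at 2 (3.45%), against 2.56%. Thus the E2F1 sites of these genes rarely held the letters of its own motif near the summit, as was the case in the list as a whole. Anywhere within the peak, an E2F motif was found in 6 of the 58 and AP-1 letters in 16. No such share is given for the full list.

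ESR1 encodes estrogen receptor alpha, the hormone-activated factor that defines luminal tumors, and lies at chr6:151977826-152450754 on the + strand. It is the longest of the 10 genes, at 473 kb from its most upstream annotated start, and had 12 annotated start sites without a promoter peak of any factor. Its strongest peak was a Fra-1 peak in intron 7, at 288 kb downstream of the canonical TSS, with a fold enrichment of 14.6 and a pileup of 28. This was at or above 87.1% of the Fra-1 list, and the window printed above shows its AP-1 motif. An E2F1 peak lay on the same site with its summit 22 bp away, but with a fold enrichment of 6.46, at or above 29.6% of the E2F1 list. A second overlap lay in the UTR of exon 8 at the 3' end, where fold enrichment was 6.74 for Fra-1 and 4.89 for E2F1. Upstream, a Fra-1 peak of 8.18 lay in an intron of longer transcripts at -139 kb from the canonical TSS, and another of 6.07 lay in the flank at -180 kb with AP-1 letters. Hence all peaks at ESR1 were more than 100 kb from the canonical TSS. Among the 512 protein-coding genes of at least 400 kb, 297 (58.0%) likewise had Fra-1 body peaks without a Fra-1 promoter peak. For E2F1 the same layout was found at 123 (24.0%). The layout was thus frequent among long genes for Fra-1, and less so for E2F1.

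PGR encodes the progesterone receptor, itself a target of the estrogen receptor, and lies at chr11:100900355-101000544 on the - strand. No peak of any factor was called in its 100 kb body, its promoters at 6 start sites or its flanks. The nearest Fra-1 summit was 204 kb from the canonical TSS, the nearest E2F1 summit 253 kb and the nearest MYC summit 6118 kb. No peak of any factor was found in the windows of 2880 protein-coding genes (14.3%), and of 9.40% of the 3660 genes of at least 100 kb. PGR also differed in its start region, where 47.1% of bases within 500 bp of the TSS were G or C, a share at or above that of 12.8% of genes. The part of base composition in the absence of peaks was not tested.

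GATA3, a zinc finger factor required for luminal differentiation, lies at chr10:8087341-8117161 on the + strand. Its E2F1 promoter peak lay at -9.40 kb from the canonical TSS and 86 bp from a more upstream alternative start, with a fold enrichment of 8.16 and a pileup of 15. This was below the E2F1 median of 8.88, and among the 12321 genes with an E2F1 promoter peak it was at or above 9.70% by strongest peak. In the window of the canonical TSS alone there was no E2F1 peak. Fra-1 peaks lay within the gene instead, with one of 11.9 in intron 4 at 11.2 kb and another of 5.69 in intron 5 at 15.2 kb. The intron 5 site was overlapped by 2 weak E2F1 peaks of 3.53 and 4.01. At this site the local background was between 2.97 and 3.98 on the pileup scale, against a median of 0.996 over the E2F1 list and 1.89 over the Fra-1 list.

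FOXA1, the forkhead factor that opens chromatin for the estrogen receptor, lies at chr14:38058757-38065264 on the - strand. No Fra-1 or MYC peak was called in its window, and the nearest Fra-1 summit was 60.4 kb away. Its E2F1 promoter peak had a fold enrichment of 7.35 and a pileup of 13, at -818 bp from the canonical TSS and 8 bp from an alternative one. The same peak lay 438 bp from the canonical TSS of TTC6, a neighbouring gene, so the gene to which it belongs cannot be told apart. It was at or above 7.32% of genes with an E2F1 promoter peak, the lowest position among the 8 genes here. A second E2F1 peak, of 10.1, lay in the 3' flank at 11.8 kb.

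ERBB2 encodes HER2, the receptor tyrosine kinase that is amplified in a subtype of breast cancer, and lies at chr17:37844167-37886679 on the + strand. Its strongest E2F1 promoter peak had a fold enrichment of 39.2 and a pileup of 64, at or above 95.9% of the list. This peak lay at -11.9 kb, 71 bp from an alternative ERBB2 start and 133 bp from the canonical TSS of PGAP3, a gene of GPI-anchor remodelling. The 2 Fra-1 promoter peaks, of 8.12 and 5.91, lay within it, so at this site the 2 genes cannot be told apart. At the canonical TSS of ERBB2, E2F1 peaks of 17.5 and 8.89 lay at -123 bp and 471 bp, and no Fra-1 peak was called there. A further E2F1 peak of 18.1 at the 3' end lay 107 bp from the canonical TSS of MIEN1, and one of 4.15 lay near PGAP3. In the flanks, E2F1 peaks ranged from 4.97 to 43.8, the strongest of them outside protein-coding promoters at 54.6 kb, and a Fra-1 peak of 5.88 with AP-1 letters lay at -56.6 kb. ERBB2 therefore had E2F1 at its own start, and Fra-1 at a start shared with a neighbour.

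ERBB3, the kinase-impaired receptor that pairs with HER2 and binds neuregulins, lies at chr12:56470583-56497289 on the + strand. A wide E2F1 peak (chr12:56472801-56474149) spanned the canonical TSS, with its summit at -913 bp and a fold enrichment of 18.7, at or above 78.9% of the list. Fra-1 had a peak within it at -95 bp, with a fold enrichment of 5.58, a pileup of 8 and a -log10 q of 4.31. This is the weakest of the strongest Fra-1 promoter peaks at these genes, at or above 15.6% of the list, and its summit lay 818 bp from that of E2F1.

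The flanks of ERBB3 held 7 of the 9 MYC peaks found at the 10 genes, and all 7 lay in promoters of neighbouring genes. A MYC peak of 10.4 lay at RPS26, which encodes a ribosomal protein, and peaks of 11.3, 8.54 and 6.14 lay at PA2G4, a growth-regulated factor that interacts with ERBB3 protein. Peaks of 9.20, 7.70 and 6.80 lay in a dense stretch with RPL41, ZC3H10 and ESYT1. E2F1 peaks overlapped all 7, the strongest with a fold enrichment of 60.1 and at or above 99.6% of its list. Hence MYC was detected on either side of ERBB3, at distances of 24.2 kb or more from the canonical TSS, and not at ERBB3 itself. The nearest of these summits, at PA2G4 just past the 3' end of ERBB3, lay 4519 bp from the nearest annotated ERBB3 start.

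KRT8 and KRT18 encode the keratin pair of simple epithelia and lie next to each other on chromosome 12, KRT18 at chr12:53342655-53346690 on the + strand. The annotation of KRT8 (chr12:53290971-53343738, - strand) spans 52.8 kb, because its longest transcripts begin within KRT18. The canonical transcript covers 7.89 kb. The same peaks were therefore counted as promoter peaks of KRT8 and of KRT18: an E2F1 peak of 40.3 with a pileup of 98 and a Fra-1 peak of 16.4 with a pileup of 48. They lay at 721 bp and 802 bp downstream of the canonical KRT18 TSS, with summits 81 bp apart, and were at or above 96.3% and 90.8% of their lists. The 2 genes are thus not independent in the count of 5 Fra-1 promoters.

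At the canonical start of KRT8, 2 E2F1 peaks of 14.1 and 14.6 lay in intron 1, at 1.00 kb and 1.36 kb. A Fra-1 peak of 5.66 with AP-1 letters overlapped the first of them. Between KRT8 and KRT18, alternative KRT8 starts lay beside Fra-1 peaks of 8.38 (-20.2 kb) and 9.90 (-22.3 kb), each overlapped by an E2F1 peak (12.7 and 10.9) and each with AP-1 letters. The other E2F1 promoter peaks of KRT8, which no Fra-1 peak overlapped, ranged from 6.02 to 7.59, apart from the one of 14.6 in intron 1. KRT18 had 4 further E2F1 promoter peaks between 6.73 and 7.94 around its short body. No MYC peak was called near either keratin, and the nearest MYC summit was 57.2 kb from the KRT18 TSS.

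KRT19, a keratin of luminal and ductal cells that is used to detect carcinoma cells in blood, lies at chr17:39679869-39684560 on the - strand. Its E2F1 peak had the highest fold enrichment at any of the 10 genes, 61.8, with a pileup of 88 and a summit in the UTR of exon 1, 31 bp downstream of the canonical TSS. This was at or above 99.6% of the E2F1 list, and at or above 98.6% of the genes with an E2F1 promoter peak, for which the median was 22.02. No Fra-1 peak overlapped it. Fra-1 lay at the edge of the promoter, at -2.03 kb, with 12.5 and a pileup of 36, over an E2F1 peak of 14.4 whose summit was 5 bp away. A second pair lay in exon 6 at 4.33 kb, with 7.55 for Fra-1 and 13.9 for E2F1, and also in a promoter window of KRT15, a neighbouring keratin gene.

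The region of all 10 windows where peaks of the 3 factors overlapped lay upstream of KRT19, at about -19.8 kb in intergenic sequence. Fra-1 had its strongest peak of all 10 genes there, 19.4 with a pileup of 50, and its summit lay next to the TGACTCA printed above. E2F1 reached 18.8 with a pileup of 51 at a summit 8 bp away, and MYC reached 4.69 with a pileup of 13. The MYC peak was at or above 5.03% of its list, with a -log10 q of 3.79, and was the 1 MYC peak of the 9 that was not in a protein-coding promoter. Its pileup was above the MYC list median of 11, over a local background of 1.98 against a list median of 0.808. Thus Fra-1 and E2F1 stood high in their lists at this site, and MYC stood low in its list by fold enrichment.

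EPCAM encodes an epithelial adhesion molecule and lies at chr2:47572297-47614740 on the + strand. E2F1 had 2 promoter peaks with a fold enrichment of 13.3. The first lay at an upstream alternative start (-24.2 kb, with the E-box shown above), with a pileup of 27. The other lay in intron 1 of the canonical transcript (0.647 kb), with a pileup of 19. Within the gene, Fra-1 had 3 peaks, of 5.66, 5.66 and 5.88, in introns of the longer transcripts between -15.0 kb and -8.21 kb. Of these, 1 was overlapped by an E2F1 peak of 8.08. A stronger Fra-1 peak of 17.8, with a pileup of 52 and AP-1 letters, lay in the 3' flank at 53.5 kb. It was at or above 92.9% of the Fra-1 list. EPCAM therefore resembled ESR1 and GATA3 in having its Fra-1 peaks outside promoters.

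**Figure D2:**
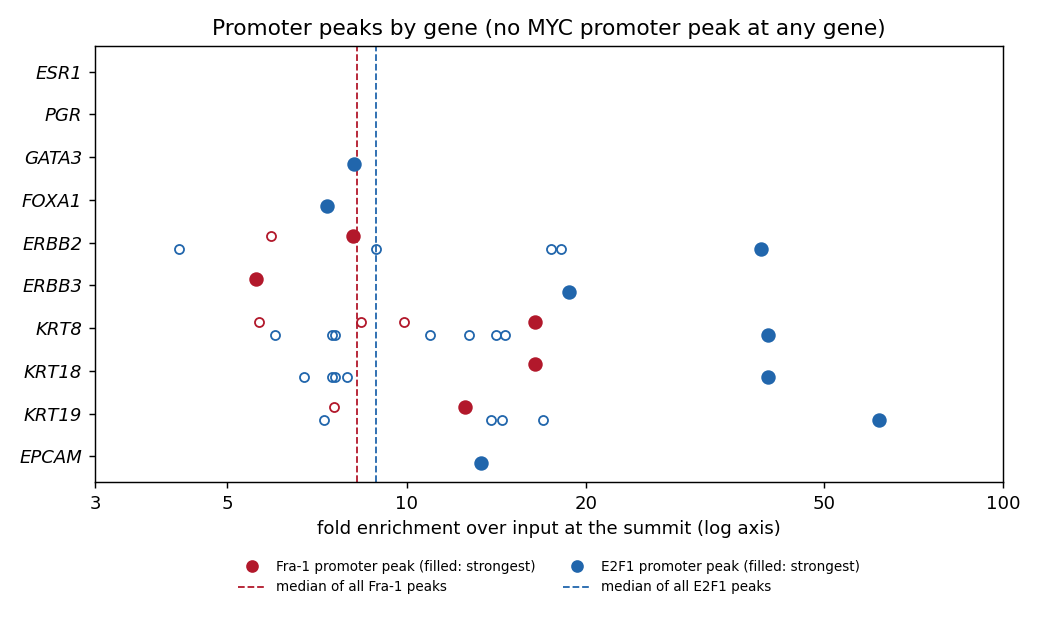
Fold enrichment over input (log axis) of every promoter peak of Fra-1 and E2F1 at each gene, filled for the strongest peak, with dashed lines at the median of each full list (8.24 and 8.88). The strongest E2F1 peaks reach from 7.35 at FOXA1 to 61.8 at KRT19, and the KRT8 and KRT18 points at 16.4 and 40.3 are the same peaks.

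Promoter peaks differed widely in strength. For E2F1, the strongest promoter peaks were 61.8, 40.3, 40.3 and 39.2 at KRT19, KRT8, KRT18 and ERBB2, above the median of 22.02 over genes with such a peak. Those of ERBB3 (18.7), EPCAM (13.3), GATA3 (8.16) and FOXA1 (7.35) were below it. For Fra-1, KRT8, KRT18 (16.4) and KRT19 (12.5) were above the median of 8.38 over 2662 genes, and ERBB2 (8.12) and ERBB3 (5.58) were below it. With 1 library per factor, these differences have no replicate error. The KRT19 Fra-1 peak of 12.5 overlapped the promoter window, but its summit at -2.03 kb lay outside it. With peaks placed by summit, KRT19 kept 1 Fra-1 promoter peak, of 7.55. With promoters restricted to the canonical TSS, Fra-1 was found at 4 genes (7.30% of 19819 genes with such a TSS), without ERBB2. E2F1 was found at 7 (58.1%), without GATA3, and MYC at 0 (16.1%).

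Outside promoters, body peaks were found at 3 genes for Fra-1 (ESR1, GATA3, EPCAM), at 3 for E2F1 (the same 3 genes) and at 0 for MYC. Over all genes, 17.3% had a Fra-1 body peak, 17.8% an E2F1 body peak and 2.44% a MYC body peak. Flank peaks were found at 7 genes for Fra-1, 7 for E2F1 and 3 for MYC, against 44.2%, 68.7% and 28.7% of all genes. The flank shares of the 10 genes were near those of all genes for E2F1 and MYC, and higher for Fra-1. However, the Fra-1 flank peaks of KRT18 are all promoter peaks of KRT8, so these genes are not independent here either. Counted once each, the windows held 25 Fra-1 peaks (9 promoter, 8 body, 8 flank), 58 E2F1 peaks (25, 5 and 28) and 9 MYC peaks, all in flanks. Of the peaks outside the promoters of the 10 genes, 2 of 16 for Fra-1, 13 of 33 for E2F1 and 8 of 9 for MYC lay in the promoter of another protein-coding gene.

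Outside the promoters of all annotated genes, the windows held 1.02 Fra-1 summits per 100 kb, against 0.625 around all protein-coding genes. For E2F1 the density was 1.57 per 100 kb against 0.625, and without KRT19 it was 1.07. KRT19 alone had 12.2 E2F1 summits per 100 kb, from 7 summits, of which 4 lay between -21.1 and -19.3 kb, 2 at -2.67 and -2.03 kb and 1 at 31.2 kb. The peak at -2.03 kb counts as a promoter peak by overlap, and falls outside here because density goes by summit. Measured from the canonical TSS, the median distance to the nearest Fra-1 summit was 9.71 kb over the 10 genes and 59.2 kb over all genes. For MYC it was 170 kb against 128 kb, and for E2F1 0.866 kb against 0.374 kb. The median distance was thus shorter than over all genes for Fra-1, and longer for MYC and E2F1.

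**Figure D3:**
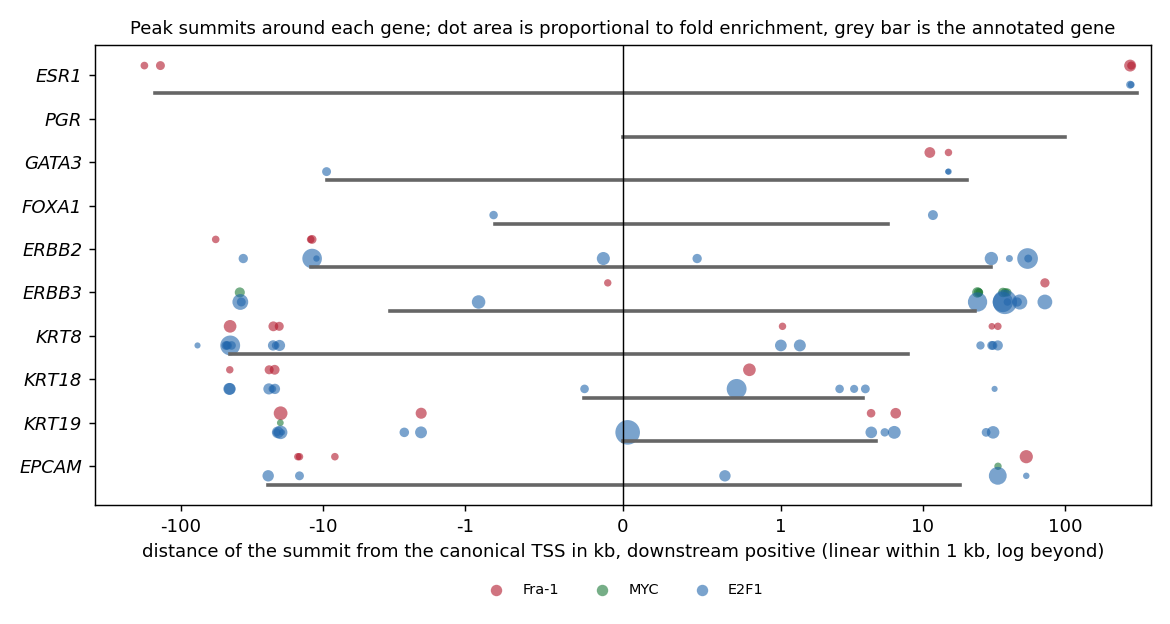
Position of each peak summit relative to the canonical TSS in kb (linear within 1 kb, log beyond, downstream positive), with dot area proportional to fold enrichment and a grey bar for the annotated gene. Peaks of ESR1 lie more than 100 kb from its TSS, PGR has none, and the largest dot near a TSS is E2F1 at KRT19.

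Of the 25 Fra-1 peaks, 19 (76%, exact 95% binomial interval 54.9 to 90.6%) overlapped an E2F1 peak, against 61.5% of all Fra-1 peaks, a share within that interval. It was 20% (5 of 25) when a reciprocal overlap of 50% was required, and 20% (1 of 5) with lists of equal length. No share of all Fra-1 peaks is given for either setting, so nothing about these genes is drawn from these values. In promoters of the 10 genes all 9 Fra-1 peaks overlapped E2F1 (interval from 66.4 to 100%), against 78.4% of the 3157 Fra-1 peaks in protein-coding promoters. Elsewhere it was 10 of 16 (62.5%), against 57.8% of 14154. The shares over all peaks were thus within the intervals of the 10 genes in either place. Intervals cover counting error only. The 19 summits lay at a median of 39 bp from the E2F1 summit (2 to 818 bp), and 11 were within 50 bp. In the other direction, 19 of 58 E2F1 peaks (32.8%) overlapped Fra-1, against 28.3% of all E2F1 peaks. All 9 MYC peaks overlapped E2F1, as did 96.1% of the full MYC list, and 1 of 9 overlapped Fra-1, against 21.4%.

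At overlapping sites, the position of each peak in its own list was compared. In promoters of the 10 genes, E2F1 stood higher than Fra-1 in 7 of 9 pairs, as at ERBB3 (78.9% against 15.6%), and over all overlapping pairs in protein-coding promoters in 54.0% of 2481. In bodies and flanks, Fra-1 stood higher in 7 of 11 pairs, as in intron 7 of ESR1 (87.1% against 29.6%), and outside protein-coding promoters in 76.3% of all 8219 pairs. An E2F1 peak of ERBB2 and a Fra-1 peak of GATA3 are each in 2 pairs, and a pair in the KRT19 flank was nearly equal (76.0% for either factor). The lists differ in length, and the pairs share genes and libraries, so no difference between places is drawn from these counts.

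In CpG content, the start regions of the 10 genes were near the median of all genes. The ratio of observed to expected CpG within 500 bp of the canonical TSS had a median of 0.722 over the 10 genes and 0.726 over all, from 0.344 at KRT8 to 0.902 at EPCAM. In the same 500 bp on either side, AP-1 letters were found at 2 of the 10 genes, against 9.61% of all genes, and E2F letters at KRT19 and EPCAM, against 10.5%. The E-box was found at 0 of the 10, against 18.3% of genes, and the CRE at 0, against 3.50%. A larger number of annotated starts gives a gene more promoter sequence, and the median was 7 for these genes and 5 for all. Among genes with a Fra-1 promoter peak it was 32 at ERBB3, 21 at ERBB2, 18 at KRT8 and 7 at KRT18 and KRT19. Among those without one it ranged from 5 at GATA3 and FOXA1 to 12 at ESR1. The part of the number of starts in the promoter counts was not tested, and the counts for the canonical TSS given above use 1 start per gene.

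For context, 20 other luminal genes and 20 basal or mesenchymal genes were counted in the same way. Over all protein-coding genes the shares with a promoter peak were 13.2% for Fra-1, 61.3% for E2F1 and 17.8% for MYC. Of the other luminal genes, 4 had a Fra-1 promoter peak, 8 an E2F1 peak and 1, the mucin gene MUC1, a MYC peak of 6.63. The strongest in this list were Fra-1 at TFAP2A (17.4) and KRT7 (16.7), and E2F1 at TFAP2A (26.9) and XBP1 (23.5). Of the basal or mesenchymal genes, 9 had a Fra-1 promoter peak, 15 an E2F1 peak and 4 a MYC peak (CD44, VIM, AXL and MET). CD44, VIM and AXL had promoter peaks of all 3 factors, a combination seen at 0 of the 10 luminal identity genes and 0 of the 20 other luminal genes. It was found at 4.67% of all genes, and at that share a count of 0 in lists this short tells nothing about luminal genes. At AXL, a receptor kinase of mesenchymal cells, E2F1 reached 64.3 and MYC 7.97, and at VIM, the mesenchymal intermediate filament, E2F1 reached 46.2 and Fra-1 17.5. The Fra-1 share of the 10 genes was thus closer to that of the basal list (45%) than to that of the other luminal list (20%), and their MYC share was the lowest of the 3 lists. These lists are short and were chosen with earlier results of these data known. No test was made, and nothing particular to a list is drawn from them.

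**Figure D4:**
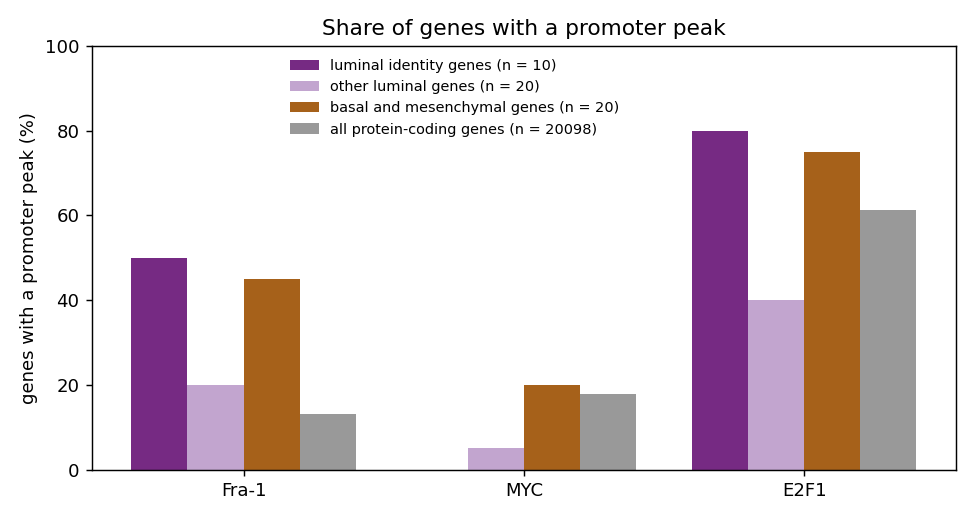
Share of genes with a promoter peak (vertical axis, in percent) for the 10 luminal identity genes, 20 other luminal genes, 20 basal or mesenchymal genes and all 20098 protein-coding genes, by factor. The luminal identity genes stand at 80% for E2F1, 50% for Fra-1 and 0% for MYC, where all genes stand at 61.3%, 13.2% and 17.8%.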

How the data were processed

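Per the labels, the authors used Trimmomatic 0.27 for trimming, Bowtie 0.12.5 for alignment to hg19 and MACS2 2.0.10 for peak calling, in each library on its own, with no pooling. The deposited signal is the fragment pileup at the summit after scaling between ChIP and input. Fold enrichment, as deposited, divides pileup by local background, a ratio with a pseudocount of 1, and p- and q-values are deposited as -log10 values. Background was recovered from pileup and fold enrichment and is approximate.

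Peaks on chromosomes 1 to 22 and X were placed on GENCODE 44 mapped to GRCh37 (63827 genes), from 1 bp of overlap, once per gene in the order promoter, body, flank. The canonical TSS is that of the Ensembl canonical transcript. Placement, overlap and motif search were tested on simulated data. The tools were pysam 0.24.0, scipy 1.17.1, pandas 2.3.3, numpy 2.4.6 and matplotlib 3.10.9 under Python 3.11.15.

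All 10 genes are named, with neighbours whose promoters hold a counted peak and, per context list and factor, at most 4 genes with the strongest promoter peaks. Members and lists were chosen with earlier results of these data known. Some sequences and results at these loci are not reported here. Authors' BED files hold the same peaks and were not used. Alternatives were a -log10 q or fold enrichment of at least 5, equal list lengths, other TSS sets, promoters of 1 kb either side, placement by summit, flanks of 20 or 100 kb, merging within 1 kb and stricter overlap.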

Additional observations from a re-analysis of the deposited data

How the results depend on the processing

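No paired analysis was possible because each factor had 1 library and no result comes from a test. With each list reduced to the 4867 peaks of the shortest list by -log10 q, promoter peaks remained at 3 genes for Fra-1 (lost at ERBB2 and ERBB3) and at 4 for E2F1 (lost at GATA3, FOXA1, ERBB3 and EPCAM). The windows then held 5 Fra-1 and 11 E2F1 peaks, and 20% of the Fra-1 peaks (1 of 5) overlapped E2F1. These lists hold fewer peaks by construction. Merging peaks within 1 kb left 38 E2F1 peaks, and a reciprocal overlap of 50% left 20% (5 of 25) of Fra-1 peaks shared with E2F1. With a -log10 q of at least 5 the Fra-1 promoter peak of ERBB3 was lost, and with the canonical TSS alone those of Fra-1 at ERBB2 and of E2F1 at GATA3. The MYC promoter count and the count of genes with all 3 factors stayed at 0 under the alternatives run for them. Of the values recomputed for the promoter counts, peak counts and overlap, 47 moved by less than the limits set for them and 7, those given above, by more. Of the values for single genes, 182 stayed within the limits and 28 moved. Restriction of bodies and flanks to the canonical transcript, chosen after seeing the data, gave 22 Fra-1, 9 MYC and 58 E2F1 peaks. The shallow input and single libraries limit which weak peaks could be called.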
